A study of Drosophila simulans and Drosophila kikkawai and Drosophila takahashii with 176 samples.

Results

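The genes described here are those that D. melanogaster expressed at least as strongly in the accessory gland (AG) as in the testis. They were selected on level, by a mean deposited TPM over the 4 AG libraries at or above the mean over the 4 testis libraries. This held for 5563 of the 17727 genes listed, while 11561 genes were higher in the testis and 603 were listed at 0 in all 8 libraries. The rule was meant to limit the part of testis RNA carried into a gland sample, and the question asked of these genes was how 2 strains of 1 species differed in the gland. The study sequenced poly(A) RNA from the AG and testis of 11 Drosophila species. In D. melanogaster each organ had 2 libraries from the genome reference strain, y; cn bw sp, and 2 from the non-reference strain ED10, each made from a pool of about 25 adult males of mixed stage. The reference strain carries recessive alleles of body colour (y), eye colour (cn and bw) and wing-base marking (sp), and no other allele or treatment is labelled. Both reference AG libraries were dissected by the same person and run on the same instrument. The ED10 AG libraries each came from another dissector and another instrument, so in the gland strain and batch cannot be told apart. In both organs ED10 replicate 2 carries the same run labels, which no reference library of D. melanogaster carries. Agreement between gland and testis therefore does not separate strain from batch. Nothing more is stated on how the replicates of a strain differed. A p-value here therefore measures only the spread between such libraries. In the ED10 gland this spread includes any effect of dissector and instrument.

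The AG of male flies is a paired tube of secretory cells that makes most of the seminal fluid proteins passed to the female at mating. Sex peptide and its network of helper proteins change female egg laying and remating, and other seminal proteins are protease inhibitors, lectins, odorant-binding proteins and short peptides. Genes of seminal proteins are known for fast change in sequence and presence between populations and species.

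Levels are given as scaled TPM, the deposited TPM divided by 1 factor per library. The factor is the median ratio of that library to the geometric mean of its table over 7349 genes at 1 TPM or more in every AG library. The deposited totals were 1959870 and 1705159 in the reference AG libraries and 1315591 and 1245354 in the ED10 libraries, and the factors were 0.6021, 1.1515, 1.1405 and 1.3264. The testis factors ranged from 0.9325 to 1.0499. The selected genes made up 88.76% to 92.14% of the total of each AG library. Of the 5563 genes, 4365 were protein-coding, 765 were other non-coding RNAs and 179 were snoRNAs. Values are in the order reference replicates 1 and 2, then ED10 replicates 1 and 2, here and below. Sex peptide (SP) stood at 57573, 13003, 6013 and 15600 scaled TPM. The gland transcription factor prd stood at 109, 198, 224 and 172. Of 9 gland identity genes, prd among them, 4 were among the selected genes and the others failed the level rule. The level rule has no gap at its threshold: CG17660 was just inside at 41.54 in both organs, and CG5039 was just outside at 15.92 in the gland and 15.94 in the testis. Some 316 of the selected genes lay within 1.1-fold of equality, and 1126 were at least 10-fold higher in the gland.

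RNA of other tissues differed between the AG libraries of the strains. Summed over 29 testis germline genes the level was 3238 and 2458 in the reference libraries and 37.7 and 7.05 in the ED10 libraries, and all 29 were outside the selected genes. In the testis libraries the same germline genes summed to 53971 to 84601. The 100 genes highest in the testis stood at 52.7%, 23.1%, 8.04% and 6.28% of their testis level. These 100 were picked on testis level alone and can include genes that the gland itself expresses. Their percentages are therefore not shares of testis RNA in the gland libraries. The ejaculatory duct and bulb list of 8 genes summed to 51231, 3829, 3769 and 1000, with reference replicate 1 far above the others. Heat shock proteins summed to 2300, 9393, 1565 and 1325, highest in reference replicate 2. Muscle (899 to 1838), midgut (20.6 to 116), hemocyte (2.16 to 55.1), fat body (1.24 to 44) and neuron (5.41 to 10.8) lists overlapped between the strains or were low. With 2 libraries against 2 the smallest two-sided exact permutation p is 0.333, so no summed level can pass a threshold of 0.05. The part of these tissues in the differences below was not tested, except where a value is given.

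**Figure D1:**
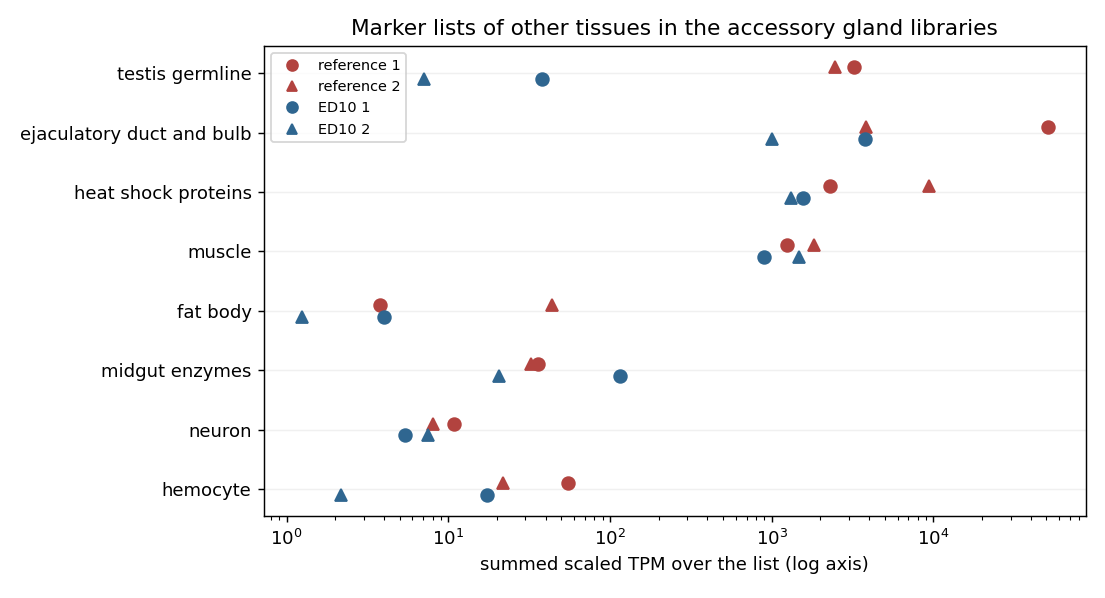
Summed scaled TPM (log axis) of marker lists of other tissues in the 4 AG libraries, with reference libraries in red and ED10 libraries in blue (circle, replicate 1, triangle, replicate 2). Testis germline genes summed to 2458 or more in the reference strain and to 37.7 or less in ED10, and duct and bulb genes stood at 51231 in reference replicate 1.

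Between the strains, 236 of the 4438 selected genes that passed the level filter (a mean of 1 scaled TPM or more) differed at a Benjamini-Hochberg adjusted p below 0.05 in limma, 163 higher in the reference strain and 73 higher in ED10. That is 5.32% of them, against 17.7% of all 10359 genes tested in the gland. In the reference direction the share was 3.67% against 16.8%, and in the ED10 direction 1.64% against 0.898%. The genes outside the selection differed far more often, 1599 of 5921, and all but 20 of these were higher in the reference libraries. The part of testis RNA in this was not tested. A fit on the 4438 genes alone, chosen after seeing the data, took both the spread and the adjustment from them and called 18, of which 14 were higher in the reference strain and 4 in ED10. All 18 were among the 236. Among genes at least 10-fold higher in the gland than in the testis 92 were called, 67 higher in the reference strain and 25 in ED10. The balance of directions depended on the scaling: 69.1% of the called genes were higher in the reference strain after scaling, 49.9% with TPM as deposited and 24.8% with each library rescaled to 1000000. The median difference over all genes tested was 0.13, -0.36 and -0.79 in these 3 settings. Leaving out reference replicate 1 or reference replicate 2 left 86 called genes each time, and leaving out ED10 replicate 1 gave 563. Every difference is on the scale of log2(scaled TPM + 1), reference minus ED10, which understates the change of low genes.

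**Figure D2:**
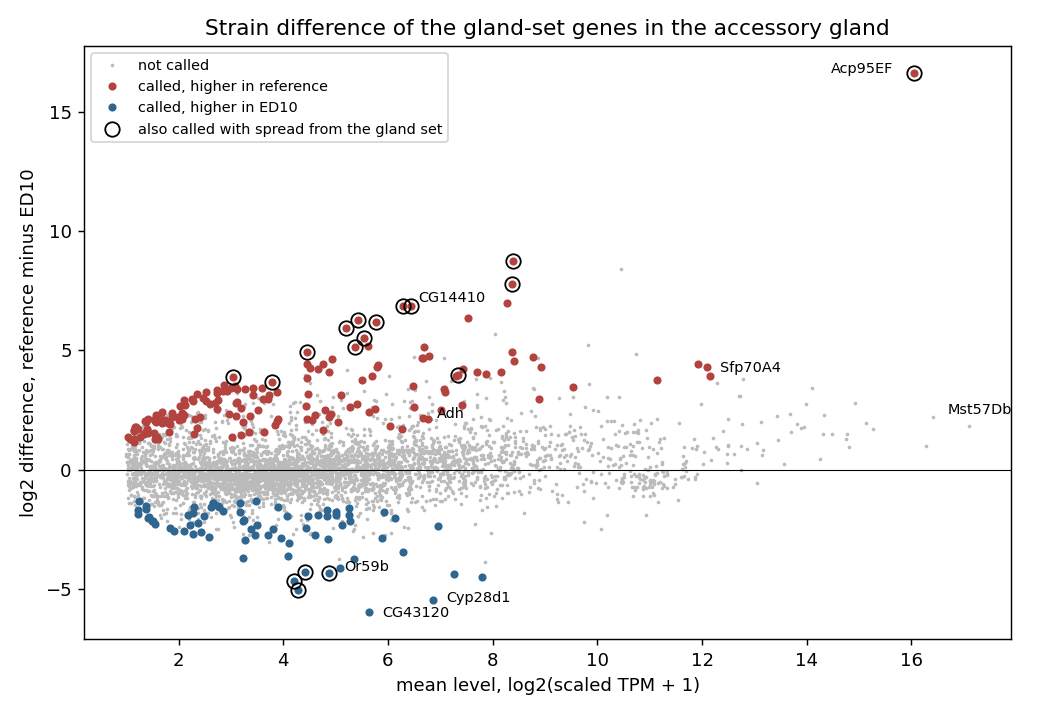
Strain difference in the AG (reference minus ED10, log2) against mean level for the 4438 selected genes tested, with called genes in red (163, higher in reference) or blue (73, higher in ED10). Black rings mark the 18 genes also called when the fit used these genes alone, and Acp95EF stands at 16.63.

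The 4 genes given as examples of the strain difference were chosen for it, so their levels are a description. Acp95EF, an accessory gland peptide gene on chromosome 3R from 24228975 to 24229279, stood at 197131 and 75956 scaled TPM in the reference strain and at 0.0291 and 0.409 in ED10. It was the third most abundant gene of both reference libraries, with 6.06% and 5.13% of their totals. It ranked 12733 and 9506 in the ED10 libraries. Its exon lies within the span of Spase22-23, a signal peptidase subunit gene on the opposite strand, which stood at 981, 603, 677 and 284 and was not called. CG14410, an uncharacterised gene on the X chromosome from 14836725 to 14837330, stood at 152 and 154 in the reference strain and 0.360 and 0.324 in ED10. Acp24A4, which encodes a small seminal protein with a Kunitz-type inhibitor domain, stood at 102 and 112 against 0.549 and 0.415. CG43120, uncharacterised, went the other way at 0.119 and 0.171 in the reference strain and 30.5 and 165 in ED10. In each of the 4 the libraries of one strain lay far from those of the other, with no overlap.

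In the testis, whose libraries entered the selection rule only through their mean over both strains, Acp95EF was also higher in the reference strain, at 454 and 1164 against 22.6 and 38.9 (a log2 difference of 4.57 ± 0.52 SE, limma adjusted p = 0.015). The ED10 testis libraries thus held more Acp95EF than the ED10 AG libraries did. The whole seminal protein list summed to 2871 and 7622 in the reference testis libraries and 333 and 89.4 in the ED10 ones, and the part of gland RNA in the testis values was not tested. Acp24A4 did not differ in the testis (0.449, 1.03, 3.00 and 0 scaled TPM, adjusted p = 0.89), and CG14410 and CG43120 were below the level filter there.

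**Figure D3:**
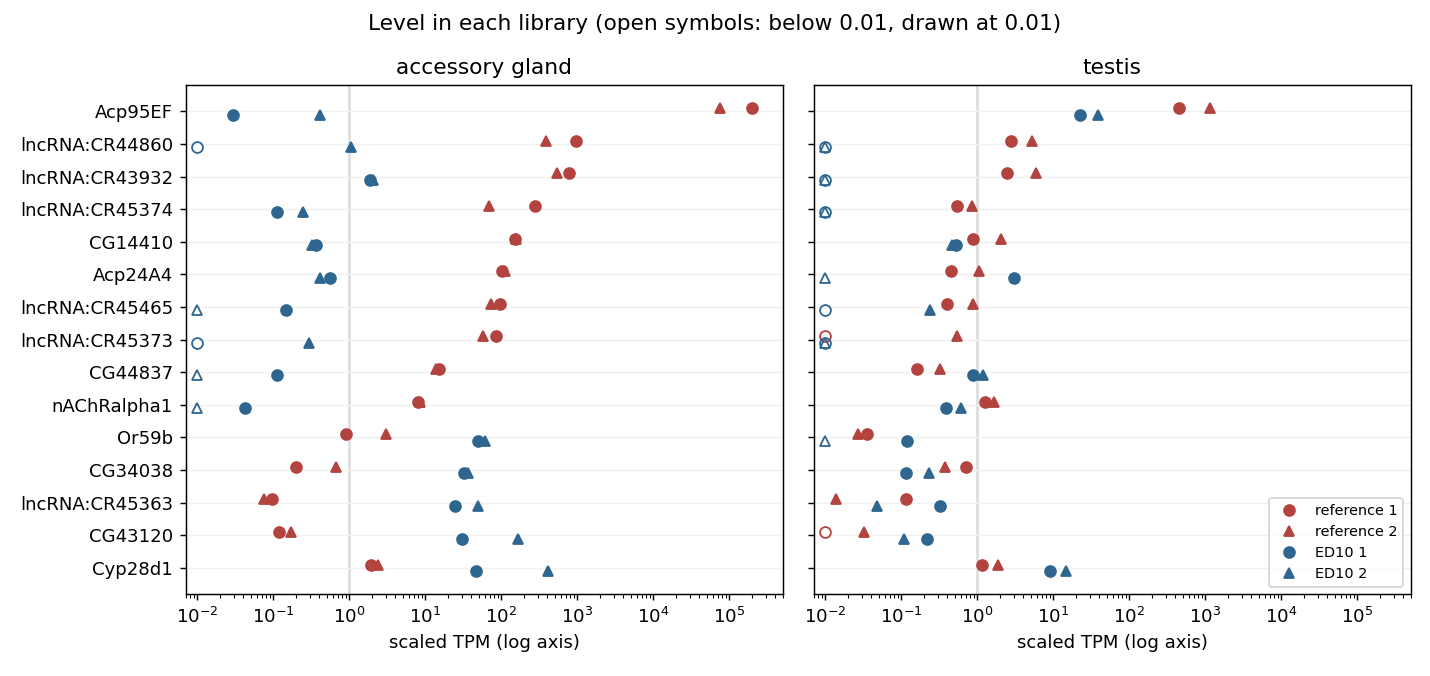
Scaled TPM (log axis) of 15 genes in each AG library (left) and each testis library (right), with reference libraries in red and ED10 in blue. Acp95EF runs from 197131 in a reference gland to 0.0291 in an ED10 gland, and Or59b, CG34038, lncRNA:CR45363, CG43120 and Cyp28d1 are higher in both ED10 glands.

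A set of 24 genes was at 5 or more in both libraries of a strain and below 0.5 in both of the other, 20 present in the reference strain and 4 in ED10. These are 0.451% and 0.0901% of the selected genes tested, against 6.79% and 0.0386% of all genes tested. A gene that reaches the level filter through one strain alone had to differ, so these counts are descriptive. Of the 20, 15 were protein-coding, Acp95EF and CG14410 among them. The seminal protein genes Sfp24Ba (7.75 and 5.4, listed at 0 in both ED10 libraries) and Sfp24Bb (12 and 12.7 against 0.304 and 0) are neighbours on chromosome 2L, within the span of Drgx on the other strand. The nicotinic acetylcholine receptor subunit nAChRalpha1 stood at 7.97 and 8.36 against 0.0417 and 0, and CNMaR, a neuropeptide receptor, at 6.99 and 8.18 against 0.117 and 0.203. The neuron list summed to 10.8, 8.03, 5.41 and 7.53, and the part of neuronal RNA in these levels was not tested. CG44837, uncharacterised, stood at 15.3 and 13.7 against 0.112 and 0, and in the testis it was higher in ED10 (0.865 and 1.19) than in the reference strain (0.160 and 0.323). The cuticle protein gene Acp1, which is no seminal protein despite its symbol, stood at 6.74 and 10.8 against 0.259 and 0.120. Its near neighbour CG31904 stood at 8.11 and 10.2 against 0.351 and 0.410.

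The other protein-coding genes of this kind were CG15140, CG16959, CG30259, CG32679, CG42711 and CG44476, with 5.18 to 23.4 scaled TPM in the reference strain. Of the 24 genes 23 were called in limma, which follows largely from how they were picked and adds no support. The exception was the mitochondrial tRNA gene mt:tRNA:Ser-TGA, at 5594 in reference replicate 1 but 24.9 in replicate 2 and at 0.256 and 0 in ED10 (adjusted p = 0.102). The genes present in ED10 alone by this measure were CG43120, lncRNA:CR45363 (0.0970 and 0.0760 against 24.4 and 48.7), CG14082 (0.460 and 0.165 against 7.53 and 7.19) and unc79, a subunit of a neuronal sodium leak channel complex (0.413 and 0.323 against 14 and 5.13).

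Of 446 tested ncRNA genes among the selected, 12.1% were called, 46 higher in the reference strain and 8 in ED10, against 4.06% of 3743 protein-coding genes (96 and 56). Over all 10359 genes tested the share was 17.7%, above both. No test compared these shares. A group of 3 lncRNAs lies in a row within 1811 bp on chromosome 2L. lncRNA:CR44860 stood at 953 and 388 in the reference strain and at 0 and 1.05 in ED10. lncRNA:CR45374 stood at 275 and 67.8 against 0.112 and 0.243, and lncRNA:CR45373 at 84.8 and 56.9 against 0 and 0.294. All were called also in the fit on the selected genes alone. lncRNA:CR43932 stood at 781 and 534 against 1.88 and 2.02 (7.78 ± 0.39 SE, adjusted p = 0.00215). It overlaps Scsalpha1, a succinyl-CoA synthetase gene on the opposite strand.

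Near the top of the list were also lncRNA:CR45465 (95.3 and 72 against 0.146 and 0) and lncRNA:CR46156 (111 and 69 against 2.21 and 0.184). In lncRNA:CR45945 (957 and 260 against 14.8 and 0) and lncRNA:CR44345 (485 and 235 against 14.1 and 0.154) the ED10 replicates were far apart. The protein-coding genes of similar size of change were CG43403 (166 and 24.4 against 0.866 and 0.732), CG15152 (108 and 51.5 against 0.505 and 2.05) and CG43938 (51.2 and 31.2 against 0.783 and 0), all uncharacterised, and CG43938 lies next to lncRNA:CR45945. The listed gene FBgn0085766, which has no annotation here, stood at 233 and 160 against 13.6 and 1.03. In all of these both reference libraries lay above both ED10 libraries, but they too were picked for the size of this difference.

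Of 16 rRNA genes tested 6 were called and of 9 tRNA genes 4, all higher in the reference strain, beside 16.8% of all genes tested called in that direction. Summed rRNA stood at 76979, 41838, 16065 and 5788 scaled TPM and summed tRNA at 5996, 211, 45.7 and 82.8. Poly(A) selection is meant to remove most of such RNA. snoRNA genes went both ways, 3 higher in the reference strain and 5 in ED10 of 96 tested. The shares of all genes tested were 16.8% and 0.898% in these directions.

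Of the 73 genes higher in ED10, 56 were protein-coding. The odorant receptor genes Or59b and Or59c, adjacent on chromosome 2R, were among the 15 with the largest difference. Or59b, a receptor of olfactory neurons, stood at 0.894 and 2.99 in the reference glands and 49.3 and 60.1 in ED10 (-4.33 ± 0.47 SE, adjusted p = 0.00367). Or59c followed it (1.4 and 4.37 against 47.7 and 77.6), and Or59a, farther along the chromosome, was lower but in the same direction (0.181 and 0.220 against 8.25 and 4.49). CG43795, whose span covers Or59b and Or59c on the opposite strand, also rose in ED10 (0.0955 and 0.411 against 3.47 and 2.43). The Or59b and Or59c levels in the testis were 0.624 or less in every library.

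A pair of cytochrome P450 genes, a family of oxidising enzymes, was among the 15 genes higher in ED10. Cyp28d1 stood at 1.94 and 2.36 in the reference strain and 46 and 408 in ED10 (-5.46 ± 1.05 SE, adjusted p = 0.025), and Cyp6a22 at 1.37 and 0.910 against 13 and 48.4. In both genes ED10 replicate 2 was well above replicate 1. Cyp28d1 was also higher in the ED10 testes, at 8.98 and 14.5 against 1.14 and 1.87 (-2.33, adjusted p = 0.0278). CG34038, uncharacterised, stood at 0.197 and 0.665 against 32.6 and 36.4, with the ED10 replicates close together. LysB, a lysozyme, stood at 7.55 and 2.78 against 69.1 and 80. CG15784 stood at 23.8 and 10.4 against 235 and 611. CG43103, which overlaps the growth-blocking peptide gene Gbp2 on the opposite strand, stood at 18 and 8.4 against 375 and 210. The remaining genes of the 15 were CG7900 (0.0896 and 0.643 against 19.1 and 13.9), CG10026 (2.48 and 2.21 against 43.6 and 17), the pseudogene CR43158 (16.6 and 8.49 against 173 and 111), and FBgn0029707 (0.679 and 1.46 against 31.9 and 47.5) and FBgn0267040 (1.21 and 1.08 against 12.7 and 19.4), which have no annotation here. None of these sets of 4 values overlapped between strains, which follows from picking called genes with the largest differences and adds no support.

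Few of the seminal protein genes named Acp, Mst57D or Sfp passed the test. Of 47 tested, 8 were called, all higher in the reference strain, a share close to the 16.8% of all genes tested that were called in that direction (3.67% of the selected genes). The number was 13 with TPM as deposited and 11 with libraries rescaled to 1000000. The median difference was 1.85 against -0.02 over all selected genes tested. With TPM as deposited the 2 medians were 1.28 and -0.51, and with libraries rescaled to 1000000 they were 0.77 and -0.93. All 47 had a difference above 0 after scaling. Without reference replicate 1 or reference replicate 2 the number called was 4 and 5. The list took 43.5% and 35.3% of the total of the reference libraries and 26.8% and 21.9% of the ED10 libraries. Within a strain the replicates also differed, by a median of 1.14 on the log2 scale in the reference strain and 0.90 in ED10, with reference replicate 1 the highest.

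The called seminal genes were of 3 kinds by their values. Acp95EF, Acp24A4, Sfp24Ba and Sfp24Bb were near 0 in ED10. Sfp70A4 (13368 and 3856 against 434 and 524) and Sfp79B (9949 and 4617 against an ED10 mean of 443, with ED10 replicate 1 at 751) remained abundant in ED10. Both were also higher in the reference testes (log2 differences of 4.78 and 5.00, limma adjusted p = 0.0134 and 0.0184). This was not particular to them. SP (4.04, adjusted p = 0.0181) and Mst57Db (5.55, adjusted p = 0.0343), not called in the gland, were higher there too, while CG17575 was not (-0.07, adjusted p = 0.904). Sfp60F (72.4 and 22.3 against 2.06 and 0.616) and Sfp87B (76 and 25.3 against 3.49 and 0) ran with the ejaculatory bulb protein genes EbpII (57.4 and 26.2 against 3.27 and 0) and Ebp (21.9 and 20.3 against 2.06 and 0.393). In the testis these 4 genes were highest in ED10 replicate 1, at 24.3, 37.1, 29.8 and 23, and at 5.12 or less in the other 3 libraries. Sfp60F, EbpII, Ebp and CG34038 lie within 9057 bp on chromosome 2R, and of these CG34038 was higher in ED10.

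Of the 10 selected genes of highest level, Acp95EF alone passed the test. Mst57Db, a short seminal peptide gene and the most abundant of the selected genes, stood at 365998, 92722, 51142 and 51279 (1.85 ± 1.14 SE, adjusted p = 0.411), and Mst57Da at 162283, 56462, 61595 and 38751, where the strains overlapped. The others of the 10 were Acp53Ea, Acp53C14a, Acp53C14b, CG43147, CG42481, CG42852 and CG9029, with differences of 0.95 to 2.78 and adjusted p of 0.182 to 0.584. CG9029 and Mst57Da changed sign when each library was rescaled to 1000000.

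Other groups of secreted proteins were mixed. Of 20 odorant-binding protein genes tested 5 were called, all higher in the reference strain, beside 16.8% of all genes tested and 3.67% of the selected genes in that direction. There were 3 and 2 calls without reference replicates 1 and 2, and 10 (6 in the reference direction, 4 in the ED10 direction) without ED10 replicate 1. Without ED10 replicate 2 the number was 3. The 5 called with all libraries were Obp56g, a seminal protein that acts in mating plug formation (168 and 27.1 against 3.46 and 3.5), Obp49a (129 and 39.7 against 5.42 and 3.54), and the low Obp59a, Obp99d and Obp83cd, at 1.49 to 7.29 in the reference strain. Obp59a lies within the span of CG30259 on the opposite strand, itself at 9.08 and 12.9 against 0.305 and 0.23. The Obp59a call was lost in 7 of 12 other fits. The abundant Obp22a (3096, 1609, 1496 and 370) and Obp56f (4549, 3092, 2531 and 2533) were not called. Of 15 serpins, which inhibit serine proteases, only the low Spn28Dc was called (8.18 and 5.62 against 1.15 and 1.49), while the abundant Spn28F (17611, 15474, 9667 and 1267) and Spn38F (14549, 15775, 10217 and 4082) were not. Of 5 neprilysin and Ance peptidase genes tested, Nepl19 was higher in the reference strain (4.78 and 4.28 against 0.480 and 0.342) and Nepl15 in ED10 (3.6 and 4.23 against 11.5 and 12.6).

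No gene of the sex peptide network (10 tested), of the C-type lectins (7), of the secretory pathway and ER folding list (19) or of the gland identity list (4) was called in limma. At an unadjusted p below 0.05 the counts were 1, 1, 0 and 0, and the medians were 0.71, 0.85, 0.87 and -0.15. All but the last turned negative when libraries were rescaled to 1000000. For sex peptide itself the difference was 1.5 ± 1.1 SE (adjusted p = 0.488), with reference replicate 2 below ED10 replicate 2, and for its network member CG17575 it was 0.67 (9878, 4444, 4220 and 4119). The lectins lectin-30A (7762, 7406, 5429 and 2595) and lectin-29Ca (9876, 5854, 4697 and 1298), the chaperones Hsc70-3 (1727, 4683, 2463 and 568) and Calr (4439, 4936, 4137 and 1593), and the homeobox gene dve (10.6, 18.6, 11.9 and 5.05) were likewise not called.

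**Figure D4:**
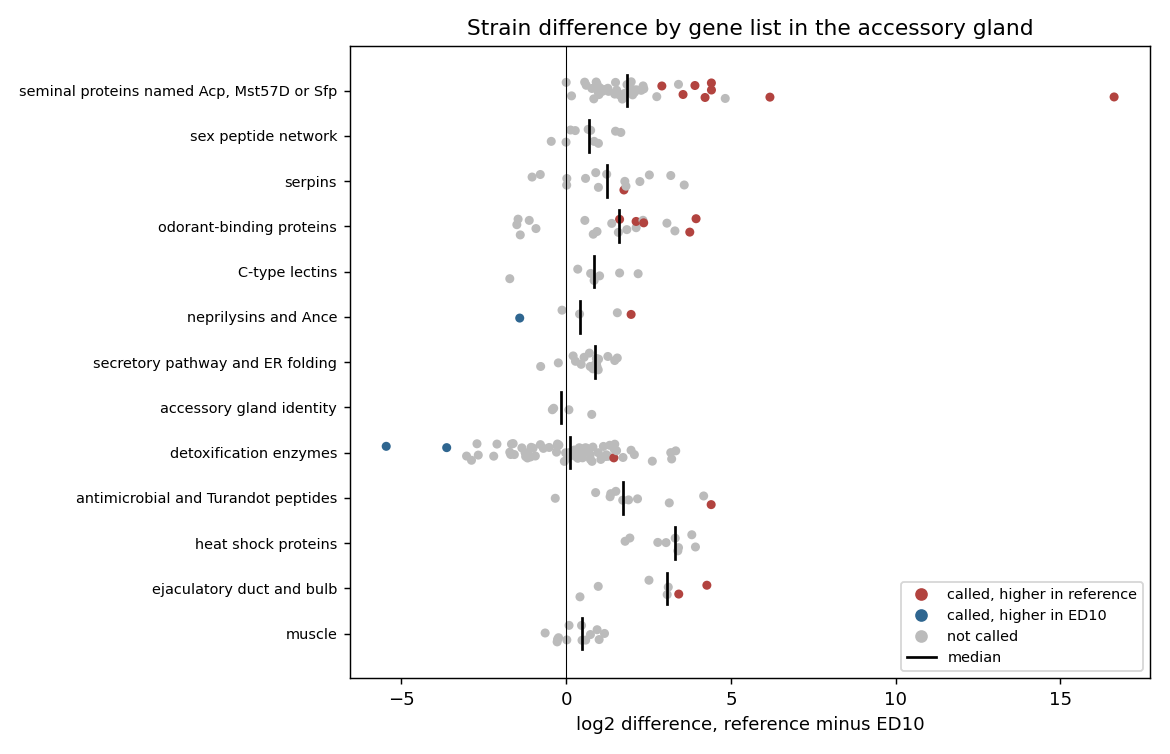
Strain difference (reference minus ED10, log2) of every tested gene of 13 lists in the AG, with called genes in red or blue, other genes in grey and the list median as a black bar. The seminal list has a median of 1.85 with 8 of 47 called, and the detoxification list a median of 0.13 with 1 and 2 called.

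Of 68 detoxification genes tested, Cyp28d1 and Cyp6a22 were called higher in ED10 and the glucuronosyltransferase Ugt317A1 higher in the reference strain (9.93 and 14.8 against 3.77 and 3.86), a call that was lost in 13 of 15 other fits. Among all genes tested, 0.898% were called in the ED10 direction and 16.8% in the reference direction. The most abundant of the list, GstD1 (815, 368, 827 and 1849) and Ugt50B3 (2096, 2603, 1944 and 336), were not called. The list median was 0.13, and it turned negative with TPM as deposited (-0.29) and rescaled (-0.77), where 11 and 16 genes were called higher in ED10 and 3 each time in the reference strain. Without ED10 replicate 1, 19 genes of the list were called higher in ED10 and 4 in the reference strain, and without either reference replicate none was called higher in ED10.

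Of the antimicrobial and Turandot list 1 of 11 tested was called, BomS2, beside 16.8% of all genes tested called in the reference direction, and 3 were called with TPM as deposited, 2 rescaled or without reference replicate 1, 0 without reference replicate 2 and 4 without ED10 replicate 1. CecA1 of this list stood at 153, 33.1, 17.7 and 12.9 and was not called. The other immune genes below were picked after their values were seen. The bomanins are short immune peptides made downstream of Toll signalling, and 6 of their genes lie within 5676 bp on chromosome 2R. BomS2 stood at 26.6 and 189 against 3.26 and 1.76, BomS4 at 10.2 and 36.2 against 1.62 and 1.1, and BomS5 at 6.99 and 12.3 against 0.578 and 0.503, and all 3 were called. BomS3, BomT2 and BomBc2 were not called, with both reference libraries above both ED10 libraries in each. BomS2 and BomS4 were also higher in the reference testes (3.28 and 2.95, adjusted p = 0.0285 and 0.0189). The recognition proteins GNBP2 (96.2 and 14.1 against 1.32 and 1.19) and GNBP1 (7.62 and 4.88 against 1.82 and 1.3), neighbours on chromosome 3L, were called too. So was NimC1, a receptor of hemocytes for phagocytosis (7.77 and 6.26 against 1.72 and 0.210), whose list summed to 55.1 and 21.7 in the reference strain and 17.4 and 2.16 in ED10. The GNBP1 call was lost in 11 of 14 other fits and that of NimC1 in 9 of 14.

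Of 9 heat shock genes tested none was called in limma, though 7 had an unadjusted p below 0.05 and all 9 were higher in the reference strain (median 3.31). Hsp70Aa stood at 396, 1193, 37.4 and 108 (adjusted p = 0.0522) and the near-identical Hsp70Ab at 401, 1214, 38.3 and 112, and reads of such copies may be shared between them. With TPM as deposited 6 of the 9 were called, and 5 rescaled or without ED10 replicate 2. Of 7 duct and bulb genes Ebp and EbpII were called, 5 with TPM as deposited, 4 with libraries rescaled to 1000000 and 0 without reference replicate 1 or 2. In the reference direction 16.8% of all genes tested and 3.67% of the selected genes were called. Met75Ca (23234, 1647, 1502 and 362) and Met75Cb, a near-identical neighbour, had high levels in reference replicate 1 alone. Of 13 muscle genes none was called in limma (1 at an unadjusted p below 0.05), with Act57B at 197, 491, 237 and 398 and Mlc2 at 248 and 259 in the reference strain and a mean of 132 in ED10. None of 5 midgut enzyme genes was called in limma either (0 at an unadjusted p below 0.05), nor was the neuronal elav (0.980, 1.31, 1.35 and 2.45).

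Several differences came in neighbouring genes, which were looked for after the values had been seen. Around Acp24A4, 15 genes lie within 12305 bp on chromosome 2L from 3693184 to 3705488, 14 of them among the selected genes. There 5 were called, all higher in the reference strain, beside 3.67% of the selected genes and 16.8% of all genes tested in that direction. Beside Acp24A4 these were IM33 (84.4 and 97.3 against 20.8 and 10.3), CG42464 (1032 and 786 against 112 and 17.4), CG42465 (1520 and 1133 against 235 and 57.4) and CG31778 (3.08 and 6.35 against 0.425 and 0.465). Genes between them did not follow throughout, with CG10031 at 14.4, 11.7, 17.9 and 6.53 and the abundant Sfp24C1 at 5986, 3671, 1191 and 1242 not called. CG13609, upstream of Acp95EF, stood at 16.4 and 12.7 against 2.43 and 0.929 and was called. The chemoreceptor genes Ir56b (5.00 and 6.02 against 0.124 and 0.812) and Ir56c (3.57 and 4.62 against 0.000812 and 0.498) were another such pair.

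The alcohol dehydrogenase gene Adh, which oxidises dietary ethanol, differed alike in both organs. In the gland Adh stood at 167 and 164 in the reference strain and 28.6 and 44.7 in ED10 (2.18 ± 0.42 SE, adjusted p = 0.0255). In the testis Adh stood at 111 and 89.1 against 24.1 and 18.1 (2.2, adjusted p = 0.0171), and the differences in the 2 organs did not differ from each other by the interaction test (-0.02, adjusted p = 0.992). Its partner Adhr, annotated over the same span of chromosome 2L from 14615552 to 14618902, stood at 108 and 96.6 against 29.6 and 26.7, and reads of the 2 genes may be shared.

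In the testis 3649 of the selected genes could be tested, and of these 123 were called (3.37%, against 4.73% of all 12549 genes tested), 97 higher in the reference strain (2.66%, against 3.32%) and 26 in ED10 (0.713%, against 1.41%). Of the 236 genes called in the gland, 129 could be tested in the testis. Of these 129, 91 had the same sign in both organs, beside 68% of all selected genes tested in both. Of the 129, 17 were called in both organs. Of the 17, 16 had the same sign in both, 15 higher in the reference strain and Cyp28d1 higher in ED10. The exception was lncRNA:CR44639, which was higher in the reference strain in the gland (18.5 and 5.85 against 0.398 and 0) and in ED10 in the testis (0 and 0.304 against 6.48 and 5.74). The number of testis calls depended on single libraries. Without reference replicate 1 or 2 none of the genes was called in limma (359 and 250 at an unadjusted p below 0.05), and without ED10 replicate 1 or 2 the calls numbered 802 and 426. At an unadjusted p below 0.05 the counts with all libraries were 692 in the testis and 712 in the gland, and no test compared the organs in how many genes differed. The difference between the strain effects of the organs, tested as an interaction over all 8 libraries, was called in 165 of 4279 selected genes (3.86%, against 14.2% of all 12660 tested).

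**Figure D5:**
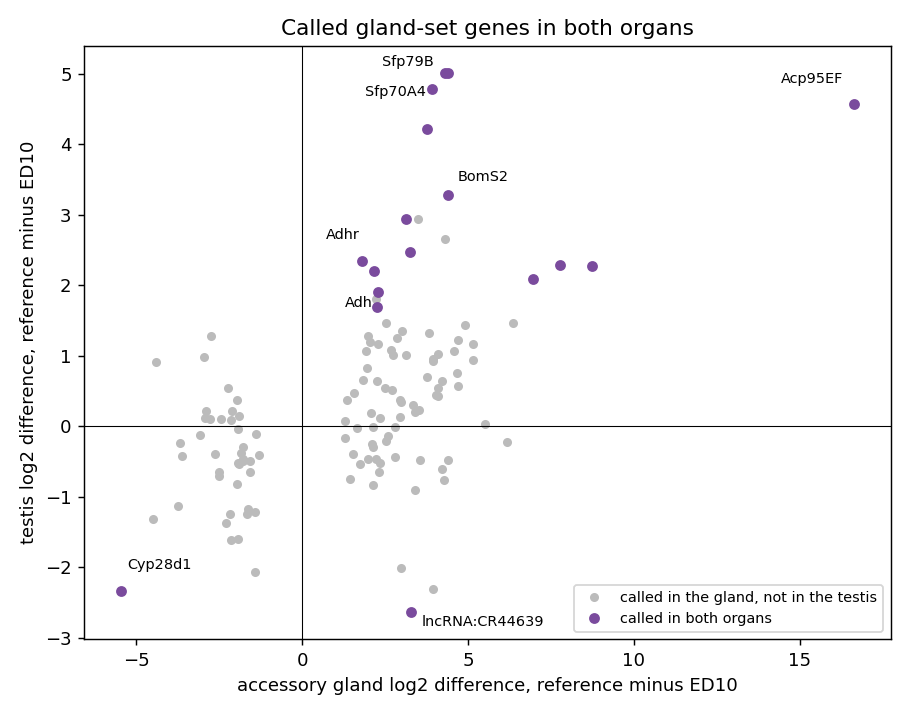
Strain difference in the testis against that in the AG (both reference minus ED10, log2) for the 129 called genes tested in both organs, with the 17 called in both in purple. Adh and Adhr, BomS2, Sfp70A4 and Sfp79B are higher in the reference strain in both organs, Cyp28d1 is higher in ED10 in both, and lncRNA:CR44639 differs in sign.

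The genes that give the reference strain its visible marks could not be compared in the gland. In the 4 AG libraries y stood at 0.0986 or less, cn at 0.226 or less and bw at 0.920 or less, all below the level filter and outside the selected genes. In the testis bw, an eye pigment transporter, stood at 10.6 and 10.8 in the reference strain and 1.16 and 0.774 in ED10 (2.58, adjusted p = 0.0124).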

How the data were processed

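The deposited values are the authors' TPM, which per the file headers has 1 column per library, and they are read as a signal since totals are not 1000000. The authors trimmed reads with Trimmomatic, aligned them with STAR 2.5.3 to the genome of the reference strain and estimated abundance with StringTie (1.3.4 in the submitters' processing notes, another version in the paper). A gene lost or diverged in ED10 and one not transcribed there therefore cannot be told apart. The libraries are directional, and how StringTie used strand is not given in the sources used here. Runs of 1 library share a column, and 0 columns were left out.

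Scaled TPM was tested with limma 3.58 in R 4.3 (trend, log2 of value + 1, a mean of 1 or more, Benjamini-Hochberg over all genes of the table), for the gland, the testis and their interaction, and the script was tested on simulated data. Symbols, biotypes and coordinates came from a BDGP6 annotation, the release 6 assembly. The set of genes, the gene lists and the tests were chosen with earlier results of these data known. Named genes were the 4 given, the 15 with the largest called difference in each direction, the 10 of highest level, called genes of the lists with 2 uncalled examples, genes at 5 or more in one strain and below 0.5 in the other, and y, cn and bw, while called neighbours were added later. No read counts were used, so no counting interval is given. Read depth differed between libraries and was lowest for ED10 replicate 2. Tables and plots used Python 3.11, numpy 2.4, pandas 2.3 and matplotlib 3.10.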

Additional observations from a re-analysis of the deposited data

Results flagged for a closer look

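For some genes called in the gland the strain difference in the gland differed from that in the testis by the interaction test (limma adjusted p below 0.05 over all genes). Values below are the gland difference minus the testis difference on the log2 scale, reference minus ED10.

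Among lncRNAs higher in the reference gland the value was 6.46 for lncRNA:CR44860, 6.12 for lncRNA:CR45374, 5.64 for lncRNA:CR45373, 5.49 for lncRNA:CR43932, 5.75 for lncRNA:CR45465, 5.47 for lncRNA:CR46156 and 5.93 for lncRNA:CR44639. Only the last of these had opposite signs with both organs called.

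Among genes of secreted and immune proteins it was 6.25 for Obp56g, 3.05 for Obp49a, 2.95 for Obp99d, 2.70 for Sfp24Ba, 2.29 for Spn28Dc, 2.43 for NimC1 and 1.74 for BomS5. It was 2.20 for the enzyme gene Ugt317A1, 2.46 for nAChRalpha1, 2.35 for CNMaR, 2.21 for Ir56b and 2.0 for Ir56c.

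Among other genes higher in the reference gland it was 4.98 for CG15140, 4.90 for CG43403, 4.58 for CG44837, 4.20 for CG15152, 4.01 for CG43938, 3.40 for CG32679, 3.16 for CG44476, 3.12 for CG30259, 3.03 for CG16959, 2.89 for CG42711, 2.72 for CG13609 and 1.62 for CG31904.

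Among genes higher in the ED10 gland it was -5.31 for CG43103, -5.03 for CG34038, -4.88 for lncRNA:CR45363, -4.47 for FBgn0029707, -4.30 for Or59b, -3.94 for FBgn0267040, -3.64 for Or59c, -3.45 for CG7900, -3.36 for the pseudogene CR43158, -3.21 for Cyp6a22, -3.09 for unc79, -2.96 for CG10026 and -2.76 for CG14082. These genes were picked for their gland difference, so the count says nothing of how often organs differ. Many stood near 0 in all testis libraries, where no strain difference could show.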

How the results depend on the processing

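No paired analysis was possible because the labels give no replicate numbers that tie libraries of the strains together. The number of selected genes called in the gland was 236 and ranged from 86 to 563 when 1 library was left out (78 to 309 higher in the reference strain, 8 to 254 in ED10). It was 375 with TPM as deposited (188 of them higher in ED10), 491 with each library rescaled to 1000000 (369 in ED10) and 92 at a gland mean of at least 10 times the testis mean (67 and 25). It was 18 with the spread and the adjustment taken from the selected genes alone (14 and 4), an alternative chosen after seeing the data. Genes higher in ED10 numbered 48 with every gene above 0 and 46 at a mean of 5 or more. In the testis 123 genes were called, 22 with every gene above 0 (19 and 3) and 4 with the selected genes alone (4 and 0). Leaving out 1 testis library gave 0 to 802 (0 to 319 higher in the reference strain, 0 to 483 in ED10), with 250 to 359 genes at an unadjusted p below 0.05 where limma called none. Genes higher in the ED10 testis numbered 16 with a pseudocount of 0.1, and 15 at a mean of 5 or more and with protein-coding genes only. For the interaction, 165 genes were called, 151 with TPM as deposited, 175 with a pseudocount of 0.1 and 73 to 388 when 1 library was left out, also chosen after seeing the data. A strain left with 1 library was assumed to vary like the other. The cause of these shifts was not tested.

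Of 78 named genes called in the gland, none changed sign under any of the 15 other fits, and 11 stayed called in all that tested them: Acp95EF, Acp24A4, CG14410, CG34038, CG44837, Or59b, lncRNA:CR43932, lncRNA:CR44860, lncRNA:CR45373, lncRNA:CR45374 and lncRNA:CR45465. Of the 78, 62 lost their call with the spread and the adjustment taken from the selected genes alone. The number lost was 27 with every gene above 0, 10 with TPM as deposited and 15 of 77 with libraries rescaled to 1000000. Uncalled genes changed sign with libraries rescaled to 1000000, to -0.06 for lectin-30A, -0.16 for dve, -1.05 for Act57B, -0.13 for Mlc2, -0.51 for Obp56f, -0.21 for Calr, -0.41 for CG17575, -0.13 for CG9029 and -0.11 for Mst57Da. Act57B stood at -0.54 with TPM as deposited. With a pseudocount of 0.1 the midgut genes Jon65Aiv and Jon99Cii changed sign to 0.62 and 1.27. With 1 library left out, uncalled genes that changed sign ran from -0.84 to 0.01 (prd), -1.59 to 1.37 (Jon65Aiv), -2.15 to 1.99 (Jon99Cii), -0.63 to 0.68 (Act57B) and -0.38 to 0.11 (Nepl16).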
